A study of Bos taurus with 6 samples.

Results

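The CpGs described here were chosen by their coverage: positions of the UMD3.1 bovine genome read more than 500 times in each of the 6 RRBS libraries. They numbered 4734, against 1593345 CpGs covered by at least 5 reads in all 6 libraries and 2115332 covered at all in the 6. The rule read the coverage and not the methylation, so that methylation was free to vary, whereas the high coverage itself is a description and not a result. The libraries came from 2 sperm samples (commercial semen straws of Holstein bulls), 2 samples of blood monocytes purified from Holstein cows and 2 cultures of ear skin fibroblasts derived from Holstein cows, each from a different animal. The labels name no treatment and no age. In RRBS (reduced representation bisulfite sequencing), the enzyme MspI opens CCGG sites, methylated or not, and the methylation level of a CpG is the percentage of reads in which the cytosine resisted bisulfite conversion. Sperm came from males and both somatic cell types from females, only the fibroblasts were cultured, and only the monocyte libraries had 12 PCR cycles instead of 14, so that none of these can be told apart from the cell type.

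Repeated DNA, such as the satellites that form long tandem arrays around centromeres, is usually highly methylated in somatic cells of mammals, where methylation keeps it compact and silent. In the germline, methylation is erased and laid down again, and satellites of sperm are known to carry less of it than those of somatic cells. A genome assembly often holds fewer copies of such an array than the chromosomes do, and reads from the missing copies can then pile up on the copies that are present. A level measured at such a position may therefore be an average over several copies and, in each cell, over several places of the genome.

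The total coverage per library ranged from 45884839 to 78890776 reads, and the median CpG had 9 to 14 reads. The median coverage of the 4734 CpGs was between 1039 and 1549 reads in the libraries, or 101 to 147 times the median of the library, and they held 12.7% to 15.4% of all coverage. The 95% Wilson interval of a single CpG had a median half-width of 1.80 to 2.32 points and never exceeded 4.36 points, so that counting error was small here, although reads without molecular identifiers are not independent molecules and these intervals cover counting error only. Over all CpGs with at least 5 reads, X-linked positions had 0.692 and 0.714 times the median coverage of autosomal ones in the libraries of sperm, and 0.947 to 1 times in those of somatic cells, in the order that the sexes of the labels give. No repeat annotation was used here. High coverage is the rule itself and cannot check the name collapsed repeats. Only the spacing of the CpGs, given further on, bears on that name.

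The CpGs with very high coverage were weakly methylated in sperm, strongly methylated in monocytes and somewhat less in fibroblasts. Averaged over the 4734 CpGs, sperm replicates 1 and 2 had 24.4% and 21.3%, monocyte replicates 82.9% and 82.4%, and fibroblast replicates 68.6% and 68.2%. The 3 cell types did not overlap, and their means and SDs over 2 libraries were 22.9 ± 2.15% (sperm), 82.7 ± 0.387% (monocytes) and 68.4 ± 0.283% (fibroblasts). Monocytes lay 59.8 points and fibroblasts 45.6 points above sperm, and monocytes lay 14.2 points above fibroblasts, each many times the spread within a cell type (two-sided exact permutation over libraries, p = 0.3333 in the 3 pairs, which is the lowest value possible with 2 against 2). Pooling both somatic cell types, the gap to sperm was 52.7 points (two-sided exact permutation over libraries, p = 0.06667, the lowest value possible with 2 against 4).

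The other CpGs covered by at least 5 reads did not show this gap. Their means and SDs over 2 libraries were 48.9 ± 0.295% (sperm), 54.2 ± 0.197% (monocytes) and 46.5 ± 0.317% (fibroblasts), so that the somatic libraries exceeded sperm by 1.44 points (exact permutation test, p = 0.733). The difference between the very high coverage CpGs and the others, taken within each library, was 51.2 points higher in the somatic libraries than in sperm (two-sided exact permutation over libraries, p = 0.06667). Both sperm libraries had a lower mean at the very high coverage CpGs than elsewhere, and the 4 somatic libraries had a higher one.

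The limit of 500 reads did not mark a change in level. The 477 CpGs just inside it, with a lowest coverage above 500 and up to 550 reads, averaged 23.3% in sperm, against 82.4% in monocytes and 68.2% in fibroblasts, and the 570 CpGs just outside it, above 450 and up to 500 reads, averaged 23.3%, 83.8% and 68.9%. From 50 to 200 reads, 12965 CpGs already averaged 21.4%, 80.1% and 63.5% in the same order. Above 2000 reads, 517 CpGs averaged 24.4%, 81.0% and 67.2%. From 50 reads upwards the levels thus moved little from band to band, whereas the 1569105 CpGs with a lowest coverage of 5 to 49 reads stood apart with 49.2%, 53.8% and 46.2%. Among the 4734 CpGs, the logarithm of the lowest coverage had a Pearson's r between -0.020 and 0.027 with the level of each cell type, across CpGs that share libraries and are not replicates.

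**Figure D1:**
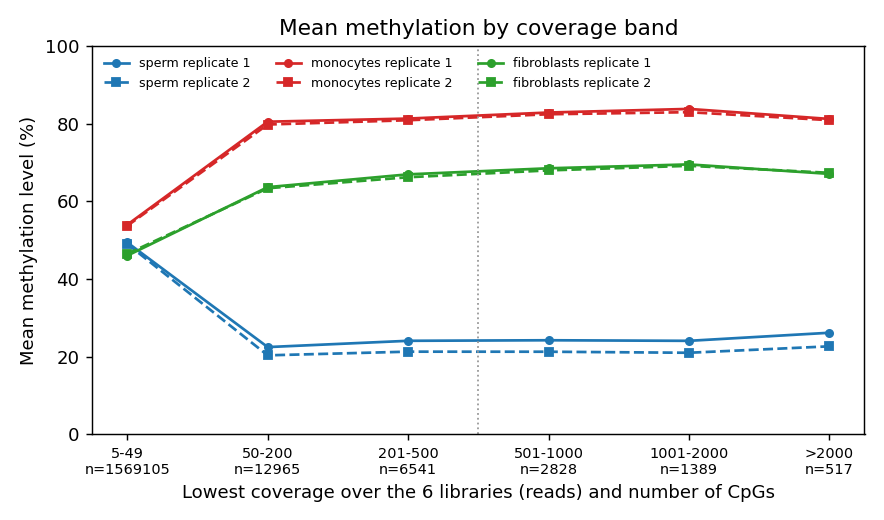
Mean methylation level (%) per library by the lowest coverage of a CpG over the 6 libraries (reads), with the number of CpGs in each band. Circles and solid lines are replicate 1, squares and broken lines replicate 2, and the dotted line marks the limit of 500 reads. Sperm falls from about the level of the somatic libraries in the first band to between 20.3% and 22.5% in the second, and stays within a few points of it in all higher bands.

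The spread between positions was wide in every library. The SD over the 4734 CpGs was 14.8 and 13.8 points for the sperm replicates, 16.3 and 15.6 points for the monocyte replicates and 19.1 and 19.8 points for the fibroblast replicates. In sperm, the middle 50% of the CpGs lay between 13.5% and 31.1% in replicate 1 and between 11.6% and 26.4% in replicate 2. In monocytes it lay between 78.5% and 92.2% in replicate 1, and in fibroblasts between 59.1% and 81.5%. Hypomethylated CpGs, below 20%, were 43.9% and 53.4% of the positions for the sperm replicates, 2.70% and 1.75% for the monocyte replicates and 4.10% and 4.82% for the fibroblast replicates. The sperm share was not particular to these positions. Of the CpGs with a lowest coverage of 5 to 49 reads, sperm had 47.6% below this limit, averaged over replicates. Monocytes had 39.6% there and fibroblasts 41.2%, so that the clear change was in the somatic shares. Hypermethylated CpGs, above 80%, were 0.253% and 0.232% in sperm, against 72.3% and 70.3% in monocytes and 30.1% in each fibroblast replicate. Sperm had intermediate levels at most other positions rather than none or full methylation: only 13 and 5 CpGs were at 0% and none at 100%.

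**Figure D2:**
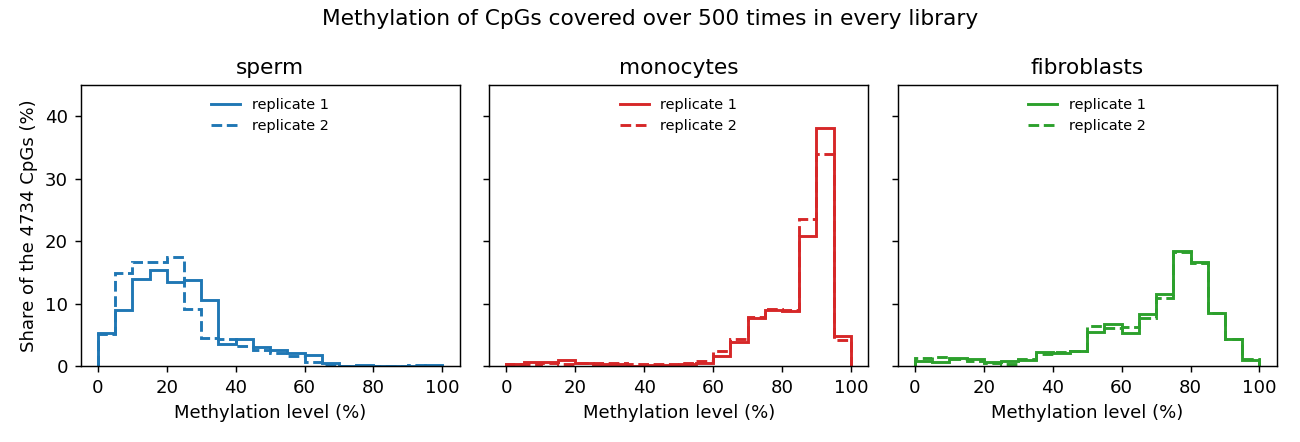
Share of the 4734 CpGs (%) in bins of 5 points of methylation level, for each cell type, with replicate 1 as a solid and replicate 2 as a broken line. Sperm has a broad peak with medians of 22.1% and 18.5%, monocytes a narrow peak with medians of 89.1% and 88.4%, and fibroblasts a peak with a median of 74.5% in both libraries and a long lower tail.

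Taken by cell type means, the commonest combination was intermediate in sperm and hypermethylated in both somatic cell types, with 1116 CpGs. It was followed by 1006 CpGs that were hypermethylated only in monocytes and intermediate in the others, and by 940 CpGs that were hypomethylated in sperm, hypermethylated in monocytes and intermediate in fibroblasts. A further 848 were hypomethylated in sperm and intermediate in both somatic cell types. The order of sperm below fibroblasts below monocytes held at 4541 of the 4734 CpGs, or 95.9%. The shares of this order and of these combinations among all CpGs tested were not computed, so that these counts only describe the 4734 CpGs. Across CpGs, the levels of monocytes and fibroblasts had a Pearson's r of 0.872, and sperm had 0.421 with monocytes and 0.541 with fibroblasts. Between replicates it was 0.981 to 0.984, so that the level of a position was recovered in a second animal of the same cell type.

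Each position was tested in a logistic regression on the reads summed by cell type, fitted to all 1593345 CpGs, and was called where the p adjusted after Benjamini-Hochberg was below 0.01 and the levels differed by 25 points or more. Monocytes were called above sperm at 4534 of the 4734 CpGs, or 95.8%, where 14.0% of all CpGs tested were called, and below sperm at 1, where 5.45% of all were. Fibroblasts were called above sperm at 4299, or 90.8%, against 12.7% of all CpGs tested, and below sperm at 10, against 16.1% of all. Monocytes were called above fibroblasts at 587, or 12.4%, against 13.7% of all, and below fibroblasts at 1, against 3.28% of all. At every called CpG, both libraries of the higher cell type lay above both libraries of the lower. The difference between monocytes and fibroblasts was regular but small: both monocyte libraries lay above both fibroblast libraries at 4411 CpGs, or 93.2% against 31.0% of all CpGs tested, and 3840 CpGs passed the adjusted p but differed by less than 25 points. The comparisons share libraries and are not independent.

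Both somatic cell types were called above sperm at 4295 CpGs, or 90.7%, against 11.0% of all CpGs tested. Of these, 3854 were not called between monocytes and fibroblasts, or 81.4% against 9.52% of all, and 441 were called higher in monocytes, or 9.32% against 1.35%. Another 239, or 5.05% against 2.92%, were called above sperm in monocytes only, and 4, or 0.0845% against 1.66%, in fibroblasts only. No comparison gave a call at 184, or 3.89% against 65.6% of all. The size of the difference varied between positions, with an SD over CpGs of 16.3 points for monocytes minus sperm, 16.7 points for fibroblasts minus sperm and 9.51 points for monocytes minus fibroblasts.

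Summing the reads of a cell type hides the variation between animals, of which the replicates give a measure. The same test and difference, applied between replicates, called 0 of the 4734 CpGs in sperm, 2 in monocytes and 1 in fibroblasts, where 0.318%, 0.185% and 0.709% of all CpGs were called. The median difference between replicates was 3.1 points in sperm, 1.3 points in monocytes and 1.7 points in fibroblasts. In sperm the difference leaned one way, with replicate 1 higher at 4092 CpGs and lower at 581, by 3.05 points on average. The Wilson intervals of the sperm replicates were separate at 1602 CpGs, or 33.8%, and replicate 1 was the higher at 1588 of these. In monocytes and fibroblasts, 11.2% and 14.7% of the CpGs had separate intervals. The difference between the sperm replicates was much smaller than the 45.6 points between sperm and the nearer somatic cell type. Each bull gave a single library, so that bull and library cannot be told apart in it.

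The CpGs lay on 38 sequences, namely all 29 autosomes, the X chromosome and 8 unplaced sequences, but unevenly. Chromosome 4 held 487, or 10.3%, against 3.29% of all CpGs tested, chromosome 8 held 444, or 9.38% against 2.69%, and chromosome 3 held 404, or 8.53% against 4.37%. Chromosome 18 held only 20, or 0.422% against 5.25%, and chromosome 19 held 60, or 1.27% against 5.46%. The X chromosome held 196, or 4.14% against 1.82%. The unplaced sequences held 55, or 1.16% against 0.657%, and on one of them all 14 CpGs tested were among the 4734.

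**Figure D3:**
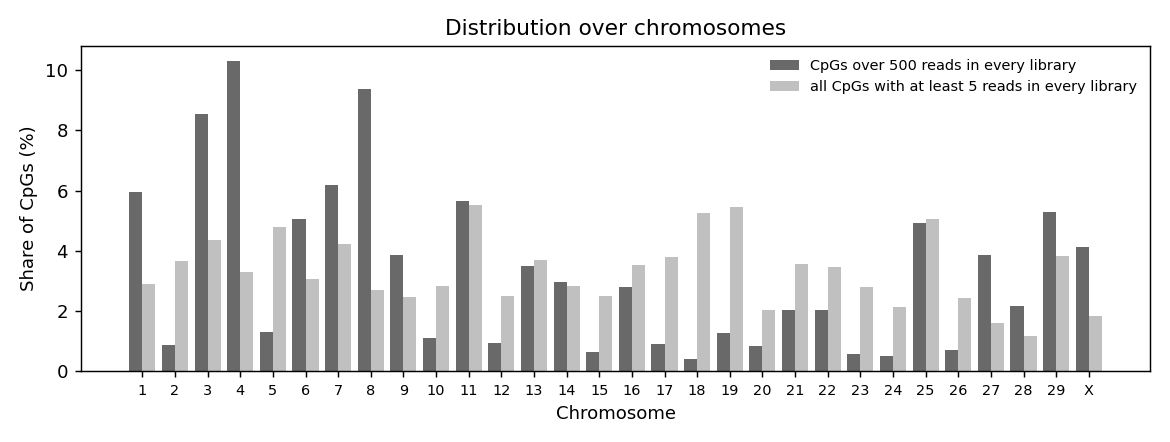
Share (%) of the CpGs on each chromosome, for the 4734 CpGs with very high coverage (dark bars) and for all CpGs with at least 5 reads in every library (light bars). Chromosomes 3, 4 and 8 hold 8.53% to 10.3% of the dark bars and at most 4.37% of the light ones, and chromosomes 18 and 19 hold little of the dark ones. Unplaced sequences are not drawn.

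Chromosome means ranged from 14.8% (chromosome 14) to 27.9% (chromosome 23) in sperm, from 70.1% (chromosome 2) to 89.0% (chromosome 24) in monocytes and from 54.4% (chromosome 2) to 76.2% (chromosome 20) in fibroblasts. The 4483 autosomal CpGs averaged 23.0% in sperm, against 82.5% in monocytes and 68.3% in fibroblasts, and the 196 CpGs of the X chromosome 21.9%, 87.4% and 72.6%. In sperm, the median coverage of these CpGs was 1120 and 1440.5 reads on the X chromosome and 1138 and 1470 reads on autosomes. The rule set the same lowest coverage for the X chromosome and the autosomes. These medians therefore cannot be set against the coverage of the X chromosome as a whole. The 55 CpGs of the unplaced sequences averaged 16.6% in sperm, against 78.2% in monocytes and 64.0% in fibroblasts. Chromosome 14, with the lowest sperm mean, was at 87.1% in monocytes and 72.5% in fibroblasts and is described below by its clusters.

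CpGs no more than 1000 bp apart were joined into clusters, which gave 605 clusters with a median of 7 CpGs, of which 474 held at least 5 and 28 a single CpG. The median span of the clusters of more than 1 CpG was 107 bp. Neighbours were close, with 84.8% of them within 75 bp, but so were those of all CpGs tested, with 83.8%, since RRBS reads short fragments. On a larger scale, the clusters fell into 235 regions separated by more than 100000 bp, and the 10 largest held 1243 CpGs, or 26.3%. The largest were chr29:19400088-19448893 with 190 CpGs in 18 clusters, chr4:41466780-41497438 with 168 in 8 clusters and chr3:82717700-82896608 with 164 in 22 clusters. They averaged 21.2%, 20.8% and 25.3% in sperm, against 75.5%, 75.3% and 86.1% in monocytes and 59.3%, 57.7% and 71.3% in fibroblasts. Genes are not placed here, because no annotation of UMD3.1 was used.

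The distances between neighbouring CpGs recurred from cluster to cluster. The commonest were 7 bp, with 615 pairs, 4 bp, with 392, 17 bp, with 308, and 29 bp, with 286. Runs of 4 distances (5 neighbouring CpGs), read in either direction, were compared between clusters. Of 1041 different runs, 154 occurred in more than 1 cluster. The run of 4, 7, 17 and 29 bp occurred 224 times, in 222 clusters on 26 sequences, and the run of 5, 22, 15 and 27 bp occurred 79 times, in 51 clusters on 10 sequences. Clusters joined by a shared run formed 9 groups, which held 415 clusters and 3728 CpGs, or 78.7% of the 4734. The methylation levels were not used to form them.

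The first group was by far the largest, with 317 clusters and 2637 CpGs on 30 sequences. The libraries were at 26.2% and 22.7% in sperm, against 87.7% and 86.9% in monocytes and 74.6% and 74.5% in fibroblasts. The second group held 61 clusters and 730 CpGs on 10 chromosomes, mostly chromosomes 29 (184 CpGs), 4 (168) and 13 (157), and was at 22.3% and 19.8% in sperm, against 75.6% and 75.1% in monocytes and 59.3% and 57.2% in fibroblasts. The second group was thus below the first in all 6 libraries, by more in somatic cells than in sperm. Called differences between monocytes and fibroblasts were found at 3.94% of the CpGs of the first group and at 23.3% of those of the second. In both groups the clusters were alike: the SD over cluster means was 2.50 points in sperm, 2.48 in monocytes and 3.15 in fibroblasts for the first, and 1.41, 3.56 and 4.05 points for the second. The 190 clusters that shared no run, with 1006 CpGs, were far more varied, with SDs over cluster means of 14.0, 25.2 and 24.5 points and means of 22.1% in sperm, against 74.4% in monocytes and 58.0% in fibroblasts. Only the 474 clusters of at least 5 CpGs could share a run, so that all smaller clusters fell into this set by construction. Means over few CpGs also vary more, so that the larger SDs follow in part from cluster size.

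**Figure D4:**
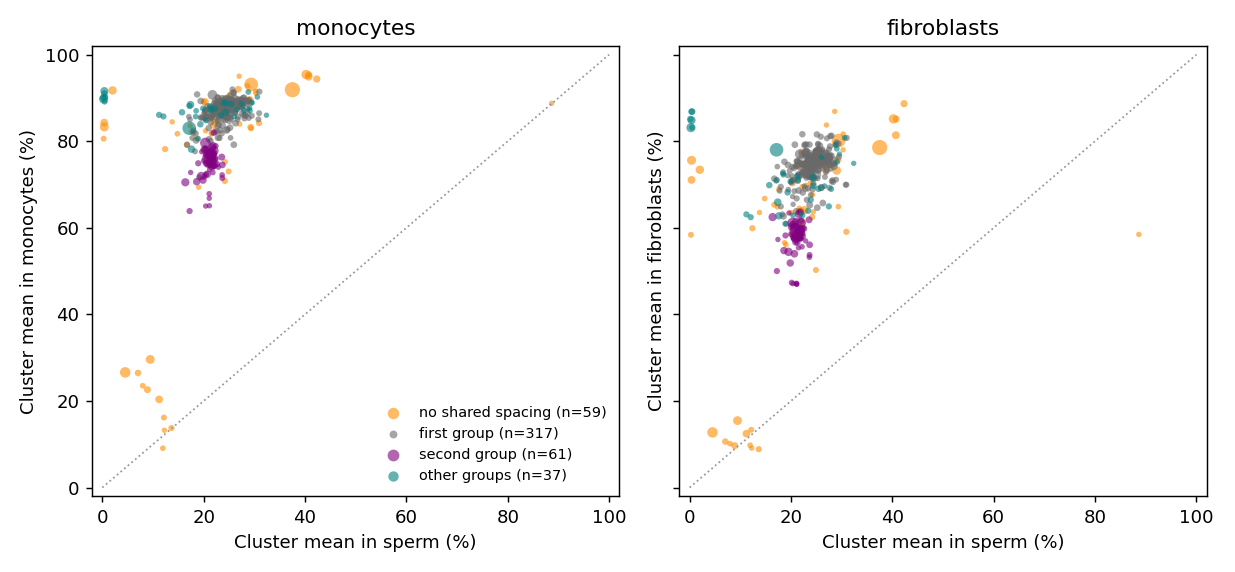
Mean methylation level (%) of each cluster of at least 5 CpGs in sperm (horizontal axis) against monocytes (left) and fibroblasts (right), with the area of a point growing with the number of CpGs and the dotted line marking equal levels. The first and second groups form dense clouds above the line. The clusters with no shared spacing include a set below 20% in sperm and below 30% in monocytes, and a single cluster at 88.6% in sperm. In monocytes, some clusters of this low set lie near the line and others clearly above it.

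Within the groups, the level depended on the place of a CpG in the pattern. The commonest run of 6 distances in the first group joined 7 CpGs, separated by 29, 17, 7, 4, 30 and 7 bp. Of this pattern, 174 copies on 25 sequences had all 7 CpGs among the 4734 with no other tested CpG in between. In sperm, the 7 positions averaged 25.5%, 9.29%, 16.2%, 55.3%, 19.5%, 16.4% and 27.0% from the first to the last. The fourth CpG was the highest and the second the lowest, although only 24 bp lay between them. The SD over the 174 copies in sperm was 6.11 points at the fourth position and 0.899 to 2.32 points at the others, so that the order of the highest and the lowest position was clear of the spread between copies. In monocytes the second position was again the lowest, at 71.6%, and the others lay between 88.9% and 92.3%. In fibroblasts the second position was at 54.0% and the others lay between 73.4% and 83.8%. The peak at the fourth position was seen in sperm and not in monocytes, so that monocytes exceeded sperm by 34.1 points there and by 61.9 to 73.3 points at the other positions. Sperm replicates 1 and 2 had it alike, at 57.5% and 53.2%.

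The place in the pattern accounted for 96.1% of the variance of the level over these 1218 values in sperm, 89.3% in monocytes and 89.1% in fibroblasts, and the copy for 0.871%, 3.39% and 3.51%. The means of single copies ranged from 19.6% to 28.1% in sperm, with an SD of 1.32 points. An aligner can place reads on the wrong copy where copies are nearly identical, so that the copies are not independent measurements.

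The second group repeated the picture with another pattern of 6 CpGs, separated by 32, 5, 22, 15 and 27 bp, of which 40 copies on 9 chromosomes were fully among the 4734. In sperm the 6 positions averaged 21.3%, 27.8%, 31.2%, 12.9%, 22.0% and 10.6%, with SDs over copies of 0.749 to 2.29 points. In fibroblasts they averaged 54.0%, 65.4%, 68.2%, 57.5%, 67.1% and 38.5%, and in monocytes 82.0%, 76.3%, 79.4%, 73.0%, 82.3% and 66.1%. Monocytes lay above fibroblasts by 28.0 points at the first and 27.7 points at the last position, and by 11.0 to 15.5 points at those between. The place in the pattern accounted for 95.9% of the variance in sperm, for 85.9% in monocytes and for 93.0% in fibroblasts.

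The same patterns were also found at CpGs that the rule did not take. Of 639 copies of the first pattern among all CpGs tested, 460 had none of their CpGs above the limit, with a median lowest coverage of 167 reads against 800 in the copies above it. Their 7 positions averaged 26.1%, 9.68%, 16.3%, 53.6%, 19.6%, 17.3% and 27.7% in sperm, each within 2 points of the copies above the limit and less than the SD over copies away. Of 105 copies of the second pattern, 39 had none of their CpGs above the limit, and their positions averaged 20.4%, 26.9%, 30.2%, 12.9%, 22.3% and 10.9% in sperm. The largest departure was at the first position in fibroblasts, with 47.9% against 54.0%, where the SD over the 39 copies was 12.1 points. The pattern of levels was therefore also present at other positions of lower coverage, in the same libraries.

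**Figure D5:**
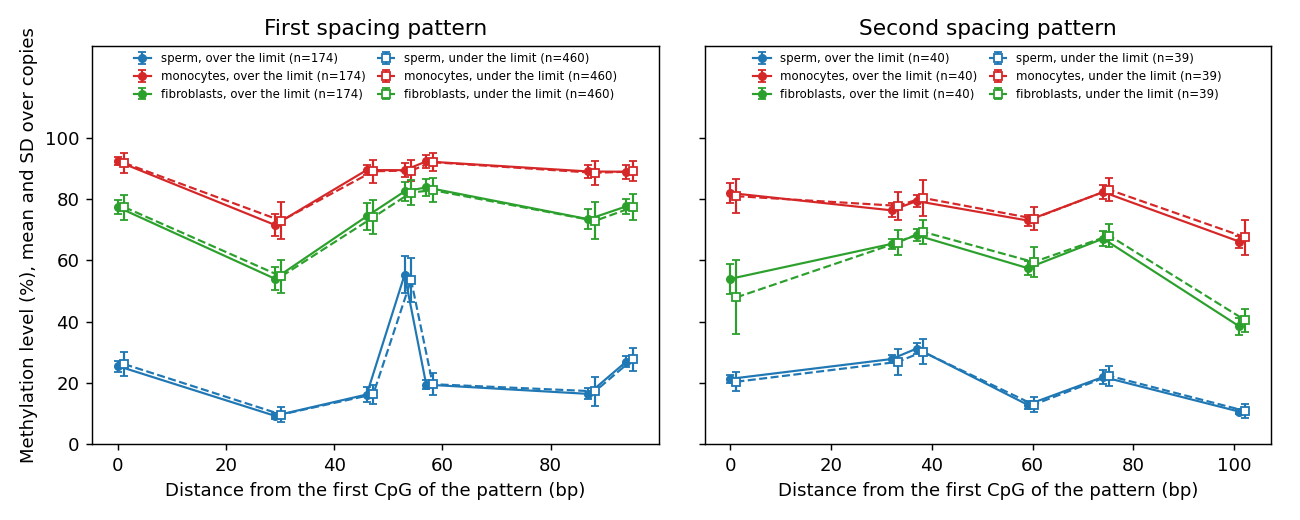
Methylation level (%) at each CpG of the first (left) and second (right) spacing pattern against the distance from its first CpG (bp). Filled circles are copies with all CpGs over the limit of 500 reads and open squares, moved slightly to the right, copies with all CpGs under it, and bars are the SD over copies. In sperm, the fourth CpG of the first pattern stands at 55.3% and 53.6% in the 2 sets, and the second at 9.29% and 9.68%.

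The 8 clusters with the most CpGs belonged to several types. The largest, chr4:41490615-41497438 with 72 CpGs, and the clusters chr4:41479594-41481388 with 30, chr29:19400088-19402689 with 28 and chr5:69747430-69749468 with 26 were of the second group, with 20.3% to 21.9% in sperm, 76.1% to 79.6% in monocytes and 59.2% to 61.1% in fibroblasts. The cluster chr9:65872611-65874009, with 67 CpGs and no shared spacing, was at 40.0% and 35.1% in sperm, against 92.2% and 91.6% in monocytes and 78.1% and 79.0% in fibroblasts. The cluster chr11:107284609-107286240, with 54 CpGs, was at 31.1% and 27.7% in sperm, against 93.2% and 93.0% in monocytes and 76.5% and 83.8% in fibroblasts. The cluster chr28:1893813-1894898, with 53 CpGs, was even from CpG to CpG in sperm, at 20.2% and 14.1% with an SD of 2.51 points over its CpGs, and at 86.5% and 79.5% in monocytes. The cluster chr25:32472482-32472705, with 30 CpGs, had low levels in every library and is described with the replicates.

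Some clusters were almost free of methylation in sperm. The 3 lowest all lay near the start of chromosome 14: chr14:277967-278158 with 10 CpGs at 0.180% and 0.150%, chr14:582868-583300 with 22 CpGs at 0.191% and 0.336%, and chr14:491821-492024 with 7 CpGs at 0.257% and 0.271%. The first was at 91.0% and 89.0% in monocytes and 85.9% and 84.3% in fibroblasts, the second at 89.9% and 89.6% in monocytes and 82.8% and 83.5% in fibroblasts, and the third at 81.0% and 80.2% in monocytes and 59.3% and 57.5% in fibroblasts. In all, 116 CpGs in 12 clusters were below 2% in both sperm libraries and above 50% in every somatic library, of which 70 were on chromosome 14 and 7 on an unplaced sequence. A group of 6 clusters sharing their spacing, with 57 CpGs on chromosome 14 and 16 on chromosome 9, included the first and the second of the 3 lowest clusters. In 5 of the 6 the sperm libraries lay between 0.150% and 0.533%. The exception, chr14:552028-552107 with 6 CpGs, was at 22.5% and 18.3% in sperm, against 85.0% and 84.6% in monocytes and 61.4% and 64.4% in fibroblasts.

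The same stretch of chromosome 14 also held the clusters with the most methylation in sperm. The cluster chr14:633235-633369, with 5 CpGs, was at 89.9% and 87.4% in sperm, against 89.4% and 88.1% in monocytes and only 57.9% and 59.0% in fibroblasts. Among clusters of at least 5 CpGs it had the highest mean in sperm and the largest excess of monocytes over fibroblasts, 30.3 points. The smaller cluster chr14:1073945-1074028, with 4 CpGs, held 4 of the 5 positions at which sperm exceeded the somatic libraries most. At position 1073960, for example, sperm was at 95.3% and 95.6%, monocytes at 65.3% and 61.4% and fibroblasts at 8.6% and 8.0%, with 863 to 1360 reads per library. The fifth, on chromosome 23 at 52349565, was at 96.2% and 95.3% in sperm, against 85.2% and 86.8% in monocytes and 40.5% and 34.3% in fibroblasts. Sperm exceeded every somatic library in both replicates at only 19 CpGs in 11 clusters, none of them with a shared spacing, or 0.401% against 12.2% of all CpGs tested, and lay below every somatic library at 4598, or 97.1% against 15.2% of all.

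Among clusters of at least 5 CpGs, the next highest in sperm were of intermediate level. They were chr4:120643918-120644173 with 12 CpGs at 42.7% and 41.9%, and chr11:107288753-107288844 with 10 CpGs at 44.4% and 37.2%, with 94.2% to 95.3% in the monocyte libraries. Single CpGs above 50% in both sperm libraries numbered 236 in 184 clusters, and 172 of them were in the first group. Full copies of the first pattern numbered 175 when counted over neighbouring members of the 4734 alone. Of the 236 CpGs, 121 stood at the fourth position of such a copy and none at its other positions.

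A small set of clusters was hypomethylated in all libraries. The mean was below 20% in every library in 15 clusters of more than 1 CpG, with 54 CpGs, on chromosomes 3, 4, 6, 7 and 27. Their CpGs averaged 12.0% and 12.6% in sperm, against 11.4% and 12.4% in monocytes and 11.1% and 11.0% in fibroblasts, so that the cell types differed by less than 2 points. This closeness follows in part from the rule, which drops any cluster that reaches 20% in a single library. The cluster chr27:23703952-23704016, for example, was dropped because its monocyte libraries were at 20.6% and 28.8%. The 3 clusters with the lowest monocyte mean were among the 15. The cluster chr6:19800697-19800818, with 6 CpGs, was at 11.7% and 12.2% in sperm, against 9.17% and 9.02% in monocytes and 9.52% and 10.0% in fibroblasts. The cluster chr4:103659433-103659498, with 5 CpGs, was at 12.7% and 11.8%, 12.8% and 13.7%, and 9.24% and 8.98% in the same order. The cluster chr7:89227276-89227418, with 8 CpGs, was at 13.5% and 13.8%, 13.1% and 14.4%, and 8.78% and 8.96%. Certain distances between neighbours recurred in this set too. A distance of 43 bp was found in 9 of the 15 clusters, against 11 of all 605, and a distance of 9 bp next to one of 62 bp in 5 of the 15, against 8 of all 605.

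Fibroblasts were seldom above monocytes. The cluster on chromosome 6 just given was the only one of the 3 named by this rule in which the fibroblast mean was the higher, 9.78% against 9.09%. In the others, chr27:23698493-23699214 with 7 CpGs and chr14:1342022-1342103 with 9, monocytes were above fibroblasts by 2.83 and 3.37 points. In the opposite direction, chr16:13804765-13804847 with 5 CpGs was at 90.9% and 89.0% in monocytes and 58.7% and 68.7% in fibroblasts, and chr17:37121520-37121757 with 6 CpGs was at 89.0% and 89.2% in monocytes and 63.4% and 63.6% in fibroblasts. The fibroblast replicates thus differed in the former and not in the latter.

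Most clusters had similar levels in both animals of a cell type. The replicates were within 5 points in every cell type at 540 of the 605 clusters, and differed by more than 10 points in some cell type at 12. Among clusters of at least 5 CpGs, the 3 with the largest differences were alike. The cluster chr25:32472482-32472705, with 30 CpGs, was at 4.73% and 4.30% in sperm, against 20.1% and 33.1% in monocytes and 18.5% and 6.98% in fibroblasts. The cluster chr25:32362159-32362917, with 20 CpGs, was at 9.95% and 8.96%, 23.9% and 35.3%, and 21.5% and 9.44%. The cluster chr2:19944324-19944399, with 9 CpGs, was at 7.11% and 6.98%, 20.5% and 32.5%, and 15.3% and 5.89%. In each of them monocyte replicate 2 was above replicate 1, fibroblast replicate 1 was above replicate 2, and the sperm replicates were close. The ranges of monocytes and fibroblasts did not overlap in these clusters, with fibroblast replicate 1 nearest to monocyte replicate 1. Smaller clusters were not all alike. At chr25:32367484-32367505, with 2 CpGs, the replicates differed by up to 16.55 points in the same directions. At chr3:82863568-82863599, with 3 CpGs, monocyte replicate 1 was the higher, at 78.2% against 62.7%.

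Among the CpGs with very high coverage, the coverage of a position was mostly similar between libraries, and a few positions were exceptions. Relative to the median of each library over these CpGs, the coverage of a CpG differed between the highest and the lowest library by a median of 1.75-fold, and by less than 2-fold at 63.3% of them. It differed by more than 10-fold at 18 CpGs. The rule asked for high coverage in every library, so that this similarity follows in part from the selection. The same folds were not computed for the other CpGs. The position with the highest summed coverage, on chromosome 4 at 41490721, had 515, 533 and 599 reads in the sperm libraries and monocyte replicate 1 but 19526, 23259 and 32295 reads in monocyte replicate 2 and the fibroblast libraries. The next, at 41490738, had nearly the same reads. Their levels were still in the usual order, at 33.9% and 22.8% in sperm, against 86.9% and 83.7% in monocytes and 72.6% and 65.0% in fibroblasts at 41490721. Of the other positions with the highest summed coverage, chromosome 21 at 56319582 was at 12.7% and 11.5% in sperm, against 85.1% and 84.5% in monocytes and 58.5% and 58.4% in fibroblasts. At 56319551, which is 31 bp away, the levels were 4.2% and 4.1%, 62.6% and 60.4%, and 14.5% and 14.3%. The fifth, on chromosome 12 at 79834851, was at 24.0% and 18.1% in sperm, against 92.9% and 92.5% in monocytes and 72.5% and 73.5% in fibroblasts.

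The spread between positions lay partly within and partly between clusters. In sperm, 74.2% of the variance of the CpGs in clusters of at least 2 was within clusters, against 30.2% in monocytes and 46.5% in fibroblasts. The median SD between the CpGs of a cluster was 12.9 points in sperm, 7.06 in monocytes and 11.3 in fibroblasts. Cluster means had their middle 50% between 20.5% and 25.9% in sperm, between 80.3% and 88.7% in monocytes and between 59.8% and 75.8% in fibroblasts. All 4 somatic libraries lay above both sperm libraries in the means of 578 of the 605 clusters, and below both in 6. The other CpGs tested were not joined into clusters, so that no share over all of them stands beside these counts.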

How the data were processed

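RRBS libraries of sperm, monocytes and fibroblasts (2 each) were analysed, grouped by the cell type of their labels. The genomic fragments of 40 to 290 bp were sequenced as 75 bp pairs. Per the labels and the submitters' processing notes, FastQC, Trim Galore 0.3.7, Bismark 0.14.3, Bowtie and methylKit were used with the UMD3.1 genome. In the deposited tables, coverage is a count of uniquely mapped reads for each CpG, with no upper limit, and the authors wrote methylation in percent, cut after 1 decimal. Methylated reads were recovered as the nearest whole number to coverage times percentage, which can be off by up to 0.1% of the coverage. Uniquely mapped reads leave out those that fit several copies equally well, so that the copies seen are those that differ in sequence.

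CpGs with more than 500 reads in all 6 libraries were taken. The CpGs, the patterns and the sets described were chosen with earlier results of these data known. Means weight every CpG equally. Cell types were compared over libraries by exact permutation tests, and per CpG by logistic regression on summed reads (likelihood-ratio test, Benjamini-Hochberg adjustment) over all CpGs with at least 5 reads. CpGs are not replicates of a cell type. Alternatives were Fisher's exact test, the edgeR quasi-likelihood test, a replicate block, other thresholds, weights and limits, and leaving out each library. The tests were tested on simulated data. Clusters named were the 8 with the most CpGs and, among those of at least 5 CpGs, the 3 highest and lowest in sperm, the 3 lowest in monocytes, the 3 with the largest difference between monocytes and fibroblasts in each direction and the 3 with the largest difference between replicates. Positions named were the 5 with the highest summed coverage and the 5 at which sperm most exceeded the somatic libraries. Other clusters and sets, such as the 15 clusters low in all libraries and the 12 clusters near 0% in sperm, were chosen after their values were seen. Coordinates are those of UMD3.1 as the tables give them. Repeat classes, sequences and genes were not analysed here. The software was Python 3.11.15 (scipy 1.17.1, numpy 2.4.6) and R 4.3.3 (edgeR 4.0.16).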

Additional observations from a re-analysis of the deposited data

How the results depend on the processing

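The differences between cell types kept their direction under every alternative run. Leaving out each library gave 58.3 to 61.3 points for monocytes minus sperm, 44.0 to 47.1 points for fibroblasts minus sperm, 14.0 to 14.5 points for monocytes minus fibroblasts and 50.2 to 55.1 points for somatic cells minus sperm, and 4528 to 4560, 4223 to 4365 and 584 to 605 called CpGs in the 3 pairs. The number of called CpGs depended on the size of difference asked for: with at least 50 points it was 2144 for fibroblasts against sperm (4309 at 25 points) and 24 for monocytes against fibroblasts (588 at 25 points), and with at least 10 points it was 3208 for the latter pair. Shares of all CpGs tested are given above for the main setting only. The counts under other settings therefore compare settings, and not these CpGs with the others. Joining CpGs up to 5000 bp apart gave 389 clusters in place of 605. Splitting the classes at 10% and 90% left 17.2% of the CpGs in the lowest class of sperm, against 48.7% below 20%. Using the replicate number as a replicate block (Cochran-Mantel-Haenszel) gave 4535, 4309 and 588 called CpGs, as without it. The replicate numbers name different animals and share only a number, with a correlation of same-numbered libraries over the CpGs of 0.080, -0.041 and -0.194 in the 3 pairs. A crossed pairing of monocytes and fibroblasts, added after seeing the data, also gave 588. The edgeR quasi-likelihood test and Fisher's exact test gave the same counts. At the coverage that the rule asks for, a difference of 25 points passed each of these tests. The cut of 25 points therefore set the counts, and their equality does not measure how far the calls depend on the test, the block or the pairing.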
